A study of Capra hircus and Bos taurus with 7 samples.

Results

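The microRNAs (miRNAs) miR-125a, miR-125b, miR-99a, miR-99b and miR-100 form a pair of small, conserved families that lie together in mammalian genomes. Their members were found by name, as the rows of the deposited miRNA tables called miR-125a, miR-125b, miR-99a, miR-99b or miR-100 once the bovine prefix and the arm were removed. All 5 names had a single row each, of 364 miRNA rows in all: bta-miR-125a, bta-miR-125b, bta-miR-99a-5p, bta-miR-99b and bta-miR-100, given below without the prefix. Only the row of miR-99a names an arm.

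Small RNA was sequenced from extracellular vesicles, the membrane-bound particles that cells release, isolated by size exclusion chromatography from milk powders reconstituted in warm water. The libraries comprised 1 of a commercial bovine powder (Bos taurus), 3 of skimmed goat powder (Capra hircus, A to C) and 3 of whole goat powder (Capra hircus, A to C). The labels do not say what the letters stand for, so p-values measure no more than how these libraries vary, and that variation may be technical. They give no breed, age, number of animals or lot for any powder either. Fat removal and any other way in which the goat powders differ cannot be told apart, nor can species, product and library in the bovine powder. The 7 libraries held 5675489 to 11963849 miRNA reads, and levels are given as counts-per-million (CPM) of the miRNA reads of a library. Markers of the milk-secreting epithelium were abundant as a set in every powder. The 7 epithelial miRNAs together held 106493 CPM in the bovine library, 104578 to 113778 CPM in the skimmed and 98499 to 103801 CPM in the whole libraries. They were led by miR-200c and miR-200b. Of the same list, miR-205 was far lower, at 175 CPM in the bovine library and 162, 0.483 and 60.0 CPM in skimmed A to C. In whole A to C it had 118, 62.1 and 268 CPM.

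A miRNA finds its target mRNAs mainly through its seed, a short stretch near its 5′ end. miR-125a and miR-125b share a seed and are the counterparts of the worm (Caenorhabditis elegans) miRNA lin-4, which times development together with let-7; in mammals they are known for repressing LIN28 and for roles in blood stem cells. miR-99a, miR-99b and miR-100 share another seed and are known for repressing MTOR and IGF1R, and they are sequence relatives of the miR-10 miRNAs of the HOX clusters. In mammals the genes come as clusters of a miR-99 or miR-100, a let-7 and a miR-125: miR-99b, let-7e and miR-125a in one, miR-99a, let-7c and a copy of miR-125b in another, and miR-100, a let-7a copy and a further copy of miR-125b in the third. In the RefSeq annotation of the goat assembly ARS1.2, used here for gene order alone, MIR99A and MIRLET7C had 0 annotated genes between them, as did MIRLET7C and MIR125B, and MIR99B and MIRLET7E. MIR100 and the MIRLET7A entry of that annotation were on different chromosomes. No entry named MIR125A was found in it, so the place of miR-125a beside MIR99B and MIRLET7E was not seen in goat. The mature product of both miR-125b copies is the same, so its row cannot be divided between clusters. The members of a family differ by few bases, and the rows of miR-125a, miR-125b and miR-99a held fractions of reads in all 7 libraries. Those of miR-99b and miR-100 held whole numbers in 4 of the 7. The division of reads between near-identical miRNAs thus makes single values uncertain. The sums over each seed do not depend on how reads were split within it, but they do depend on any sharing with other rows. In skimmed A, miR-99b (6553 reads) and miR-100 (99 reads) were whole while miR-99a-5p (37399.2 reads) was not, so that sum held a fraction too.

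The miR-125 family was of middle abundance in goat powder and high in bovine powder. miR-125a stood at 17047 CPM in the bovine library (95% Poisson interval 16940 to 17155), at 3354, 2494 and 2271 CPM in skimmed A, B and C, and at 4687, 5902 and 3797 CPM in whole A, B and C. The bovine value was above all goat values, and all 3 skimmed values were below all 3 whole values. Its partner in seed, miR-125b, often described in stromal cells as well as in blood cells, had 9309 CPM in the bovine library (interval 9230 to 9389), 1605, 1893 and 1455 CPM in the skimmed libraries and 2558, 3516 and 2222 CPM in the whole libraries. Its libraries lay in the same order of groups, without overlap. By rank among the 364 rows, miR-125a was place 17 in the bovine library and places 31 to 49 in the goat libraries, and miR-125b was place 20 and places 43 to 56.

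Most reads of the miR-99 and miR-100 family were those of miR-99a. miR-99a-5p stood at 8118 CPM in the bovine library (interval 8044 to 8192), at 4028, 3716 and 4039 CPM in skimmed A to C and at 4929, 5387 and 4756 CPM in whole A to C. The groups did not overlap, and the libraries of a goat powder lay close together. miR-99b, the product of the miR-125a cluster, had 1368 CPM in the bovine library (interval 1337 to 1398), 706, 647 and 783 CPM in the skimmed and 780, 1146 and 1083 CPM in the whole libraries. Here skimmed C lay just above whole A, so the goat powders overlapped, while the bovine library was again the highest. miR-100 was scarce: 91.5 reads, or 16.1 CPM (interval 13.1 to 19.9), in the bovine library, 10.7, 30.9 and 30.6 CPM in the skimmed and 9.75, 39.2 and 58.5 CPM in the whole libraries. Its values spread over a range wider than any difference between powders, from 64 reads in whole A to 700 reads in whole C, and the bovine value lay inside the goat range. These intervals cover counting error only, because copies made by PCR cannot be recognised without molecular identifiers.

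**Figure D1:**
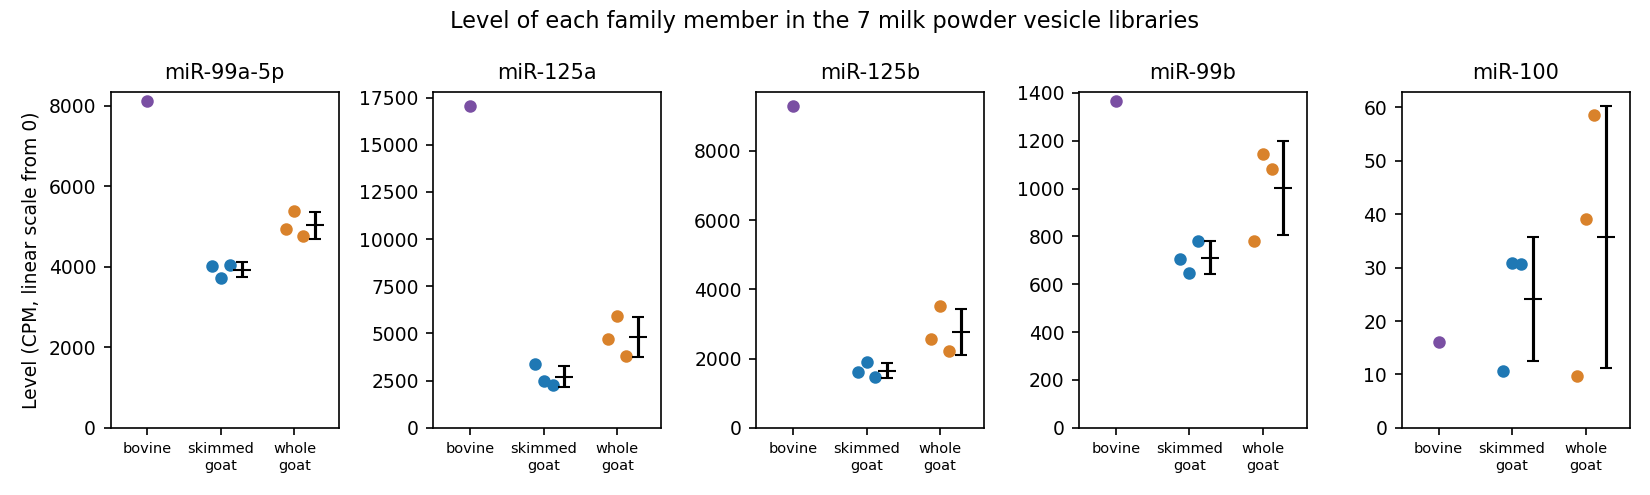
Level in CPM (y axis, linear from 0, one scale per panel) of the 5 members in the bovine, skimmed goat and whole goat libraries; each point is a library, and the bars beside the goat points give the mean and SD of 3 libraries. For miR-125a, miR-125b and miR-99a-5p the bovine library is highest and the skimmed libraries are all below the whole ones, while miR-99b overlaps between goat powders and miR-100 overlaps throughout.

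The order of the members differed between the bovine and the goat libraries at the top only. In the bovine library it ran miR-125a, miR-125b, miR-99a-5p, miR-99b and miR-100. In 5 of the 6 goat libraries it ran miR-99a-5p, miR-125a, miR-125b, miR-99b and miR-100, and in whole B miR-125a stood above miR-99a-5p. In whole powder the first places did not differ beyond their spread, with miR-99a-5p at 5024 ± 326 CPM and miR-125a at 4795 ± 1057 CPM (SD, n = 3 each). In skimmed powder they were apart, at 3927 ± 183 CPM and 2706 ± 572 CPM. As mature miRNAs are of near-equal length, CPM is used here as the level per molecule read; how well each miRNA enters a library was not measured, so the order is that of the reads.

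Within each seed family the balance of members was similar in all powders. miR-125a made up 64.7% of the miR-125 reads of the bovine library (exact Clopper-Pearson interval 64.4 to 64.9), 61.8% ± 5.44 of those of skimmed powder and 63.5% ± 1.07 of those of whole powder (SD, n = 3 each). Of the miR-99 and miR-100 reads, miR-99a-5p made up 85.4% in the bovine library, 84.2% ± 0.883 in skimmed and 82.9% ± 2.90 in whole powder. miR-99b took 14.4%, 15.2% ± 0.775 and 16.5% ± 2.50 in the same order of powders, and miR-100 took 0.170% of the reads in the bovine library and 0.171% to 0.992% in the goat libraries. The bovine shares of miR-125a, miR-99a-5p and miR-99b were inside the range of the goat libraries, although the totals were not.

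Skimmed goat powder was then compared with whole goat powder. Every member had a lower fitted value in skimmed powder, as did 96 of the 209 miRNAs kept. None of the members passed the threshold, set at a Benjamini-Hochberg adjusted p of 0.05 for edgeR's quasi-likelihood test across those 209. The share of all miRNAs called by that test was 0.478%, a single miRNA, miR-25, which is no member. miR-125a had a log2 fold change of -0.72 ± 0.21 (SE; 95% interval -1.20 to -0.24) and an edgeR adjusted p of 0.12, and was lower in 3 of 3 skimmed libraries than in any whole library. miR-125b had -0.65 ± 0.18 (interval -1.06 to -0.23), also with an edgeR adjusted p of 0.12. These are levels in skimmed powder of 0.607 and 0.639 times those in whole powder. For miR-99a-5p the log2 fold change was -0.26 ± 0.11 (interval -0.50 to -0.02; edgeR adjusted p = 0.38), a smaller difference estimated with a smaller error. miR-99b had -0.40 ± 0.22 (interval -0.90 to 0.10; adjusted p = 0.57) and miR-100 had -0.50 ± 1.25 (interval -3.37 to 2.37; adjusted p = 0.96) in the same edgeR fit. The sign of miR-100 turned, to 0.09, when whole C was left out.

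At an unadjusted p under 0.05 in edgeR stood 3 of the 5 members, miR-125a, miR-125b and miR-99a-5p, against 10.5% of all miRNAs tested in either direction and 4.78% lower in skimmed. The same 3 did not overlap between the powders, all lower in skimmed, as did 10.5% of the miRNAs tested. After TMM scaling of the CPM they still did not overlap, where 7.66% of all miRNAs were so placed. DESeq2's Wald test, over the same miRNAs and without its own filter, called miR-125a (adjusted p = 0.014) and miR-125b (adjusted p = 0.048) lower in skimmed, where it called 5.94% of the 202 miRNAs that it gave an adjusted p, and 3.47% as lower. limma-voom called 0 of the 5 members (adjusted p of 0.13 for miR-125a and 0.15 for miR-125b). A call for the miR-125 family therefore depended on the test, and with each goat library left out in turn the edgeR log2 fold changes of miR-125a ranged from -0.97 to -0.58 and those of miR-125b from -0.77 to -0.48.

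Summed over each seed the pattern was the same. The miR-125 rows together had 4959, 4387 and 3726 CPM in skimmed A to C and 7245, 9418 and 6019 CPM in whole A to C. That is 0.436% ± 0.0617 of miRNA reads in skimmed and 0.756% ± 0.172 in whole powder (SD, n = 3 each), a 0.576-fold level. The miR-99 and miR-100 rows together had 4744, 4394 and 4852 CPM in skimmed and 5718, 6572 and 5897 CPM in whole libraries, a 0.769-fold level in skimmed powder. Neither sum overlapped between the powders, and the exact two-sided permutation test gave p = 0.1 for each, the smallest that 3 libraries against 3 allow. Both miR-125 rows had already separated, so their sum had to separate. The other sum is mostly miR-99a-5p, which had also separated. The separation of the sums therefore adds no support to the single rows. In whole powder the miR-125 sum was above the miR-99 and miR-100 sum in each of the 3 libraries, though by little in whole C, and in skimmed powder it was above in skimmed A alone.

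**Figure D2:**
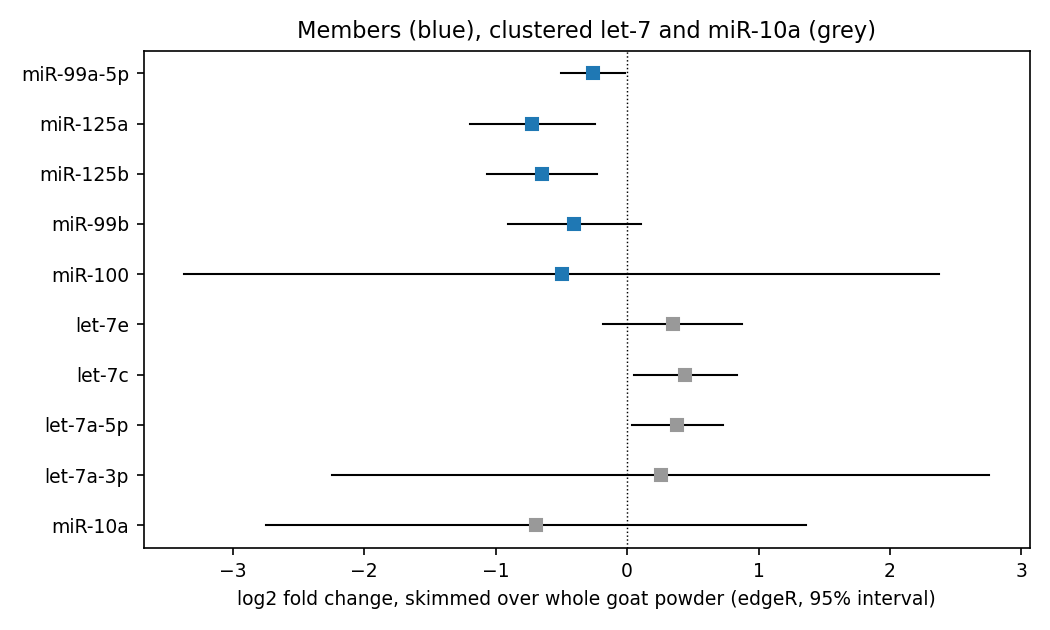
Log2 fold change of skimmed over whole goat powder (x axis) with its 95% interval from edgeR, for the 5 members (blue) and for the let-7 miRNAs of the same clusters and miR-10a (grey). The members lie below 0, with the intervals of miR-125a, miR-125b and miR-99a-5p wholly below it and those of miR-99b and miR-100 crossing it. The 4 let-7 rows lie above 0, and the intervals of let-7e and let-7a-3p cross it.

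The let-7 miRNAs that share clusters with these families had values on the other side of 0. Of the clustered let-7 rows (let-7a-5p, let-7a-3p, let-7c and let-7e), 4 of 4 had values above 0, as did 113 of the 209 miRNAs tested, with a median log2 fold change of 0.37, against -0.68 for the miR-125 rows, -0.40 for the miR-99 and miR-100 rows and 0.03 over all of them. The sign of the low let-7a-3p turned without skimmed B (-0.57) or without whole B (-0.26). edgeR called 0 of these let-7 rows, 2 had an unadjusted p under 0.05 (10.5% of all miRNAs), DESeq2 called 1 as higher (2.48% of all) and limma-voom called 0. let-7c, the partner of miR-99a, had 6822 ± 1339 CPM in skimmed and 5375 ± 539 CPM in whole powder (SD, n = 3 each), a log2 fold change of 0.44 ± 0.17 (SE; edgeR adjusted p = 0.35). let-7e, the partner of miR-99b and miR-125a, had 2194 ± 347 and 1856 ± 604 CPM, which overlapped. let-7a-5p, of which several gene copies exist and which was the most abundant miRNA here, had 143485 ± 13674 CPM in skimmed and 117668 ± 13203 CPM in whole powder. Among the other let-7 rows, let-7b and let-7f the most abundant, 4 of 6 had values above 0, edgeR called 0, 1 had an unadjusted p under 0.05, and DESeq2 and limma-voom called 0.

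Ratios within a library do not depend on how libraries are scaled, and they set the members against each other and against let-7 directly. Between clustered members the powders overlapped. The log2 ratio of miR-99b to miR-125a was -2.25, -1.95 and -1.54 in skimmed A to C and -2.59, -2.37 and -1.81 in whole A to C. For miR-99a-5p over miR-125b it was 1.33, 0.97 and 1.47 in skimmed and 0.95, 0.62 and 1.10 in whole libraries. miR-99 products were thus the minor partner in the miR-125a cluster and the major one beside miR-125b in every goat library. miR-100 stood far below miR-125b, with log2 ratios from -8.03 to -5.25 over the goat libraries. Differences between the powders were 0.34, 0.37 and 0.34 in log2 for the 3 clustered pairs (exact two-sided permutation p = 0.4, 0.2 and 0.7) and -0.10 for miR-125a over miR-125b (exact permutation p = 0.7). For miR-99b over miR-125a the difference was 0.16 without skimmed C, 0.18 without whole A and 0.57 without whole C, and for miR-99a-5p over miR-125b it was 0.24 without whole B.

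Against the clustered let-7 the powders separated in each of the 4 ratios taken. let-7c and let-7a-5p did not overlap between the powders either, both higher in skimmed, where 20.1% of miRNAs tested did not overlap in either direction. Their ratios to miR-99a-5p and miR-125b therefore had to separate, and these ratios add no support to the single rows. Only miR-125a over let-7e could have overlapped, as let-7e itself did. The log2 ratio of miR-125a to let-7e was 0.44, 0.12 and 0.33 in skimmed A to C and 1.52, 1.22 and 1.45 in whole A to C, a difference of -1.10. miR-99a-5p over let-7c gave -1.05, -0.67 and -0.61 in skimmed and -0.23, -0.06 and 0.00 in whole libraries, a difference of -0.69. For miR-125b the mean log2 ratio to let-7c was -2.04 ± 0.37 in skimmed and -0.98 ± 0.27 in whole powder, and that to let-7a-5p was -6.45 ± 0.25 in skimmed and -5.43 ± 0.26 in whole powder (SD, n = 3 each), differences of -1.06 and -1.01. Each of these had an exact two-sided permutation p of 0.1, the smallest possible, and 0.2 after Benjamini-Hochberg adjustment over the 8 ratios, so none passed. Non-overlap of this kind occurred in 20.1% of the 7875 pairs that can be formed from the 126 miRNAs averaging 100 CPM or more in goat. Of the 4 ratios, 2 have miR-125b and 2 have let-7c in common, so they are not independent of each other. The rows of let-7a-5p, let-7c and let-7e held fractions of reads in all 7 libraries, so their single values are uncertain too.

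**Figure D3:**
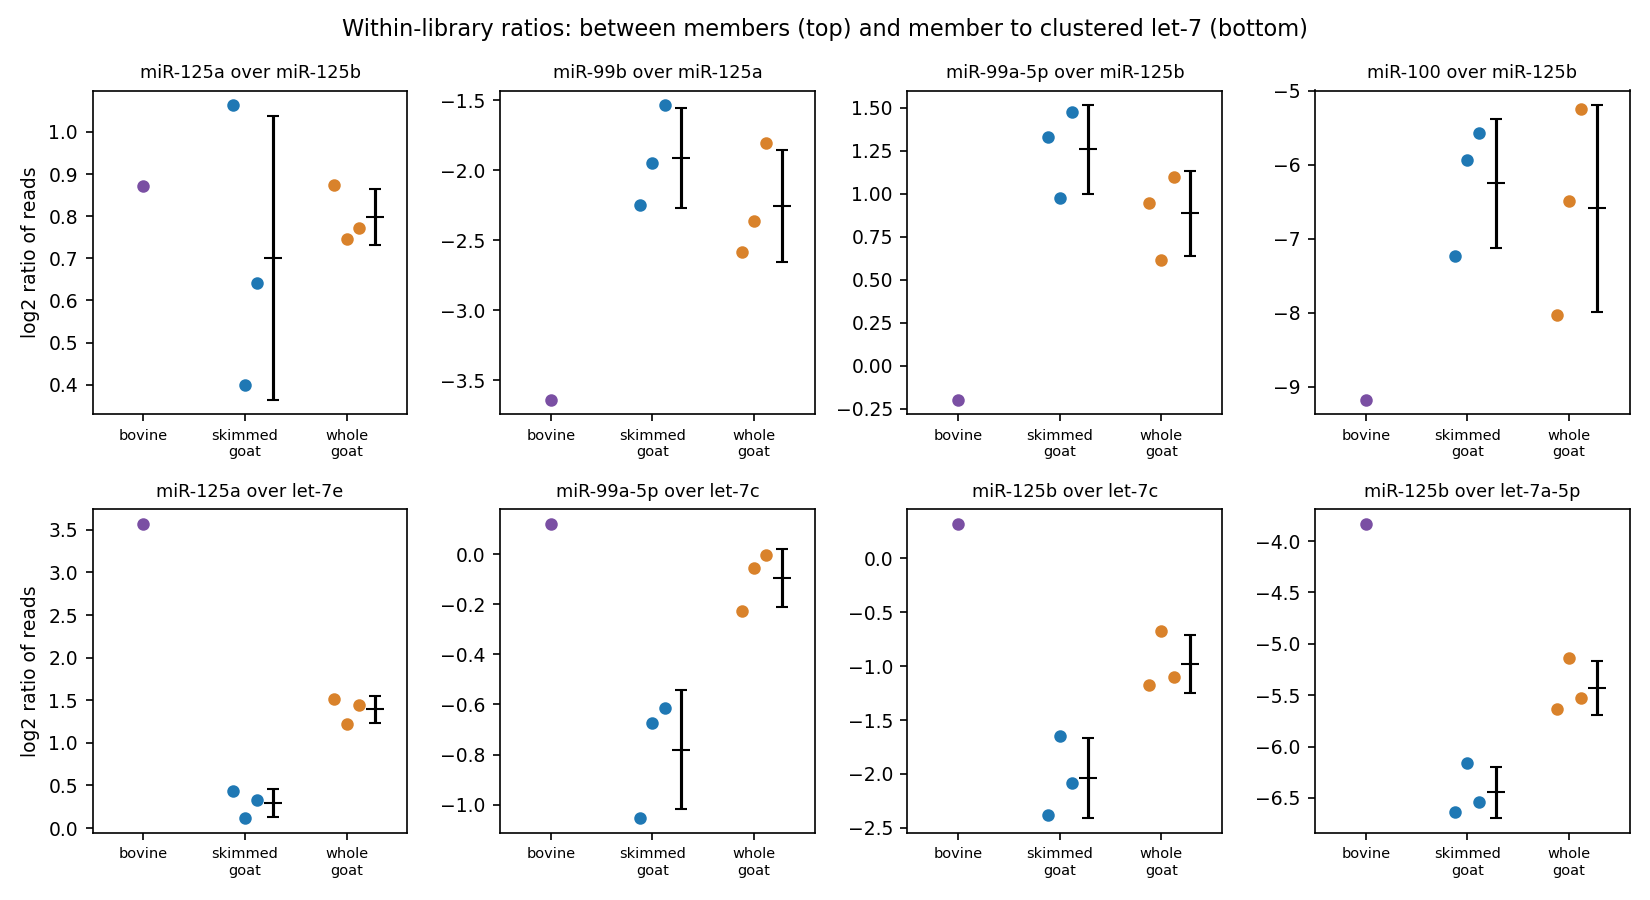
Log2 ratio of reads within each library (y axis, one scale per panel, not starting at 0), between members in the top row and from a member to a let-7 of its cluster in the bottom row; points are libraries and bars give the mean and SD of the 3 goat libraries of a powder. Goat powders overlap in the top row and separate in the bottom row, and the bovine library stands outside the goat range in all but miR-125a over miR-125b.

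The bovine powder has a single library, so its values are described without a test. A miRNA was counted as different when it was at least 2-fold from the mean of the 6 goat libraries and outside their range, over the miRNAs averaging 100 CPM or more in the 7 libraries. By that count 57.6% of all miRNAs differed, with 14.4% higher and 43.2% lower in bovine powder. Of the 4 members with enough reads, both miR-125 rows were higher and both miR-99 rows were not counted. miR-125a was 4.54-fold above the goat mean and 2.89-fold above the highest goat library, and miR-125b was 4.22-fold and 2.65-fold above. miR-99a-5p was 1.81-fold above the mean and 1.51-fold above the highest goat library, and miR-99b was 1.60-fold and 1.19-fold above. miR-100 was at 0.539 times the goat mean, within the goat range. With TMM scaling over the 7 libraries miR-99a-5p and miR-99b also passed 2-fold, at 2.55-fold and 2.25-fold, and miR-125a and miR-125b stood at 6.41-fold and 5.96-fold, while the share of all miRNAs counted as higher became 25.6%. The distance of the miR-99 rows from goat therefore depends on the scaling.

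**Figure D4:**
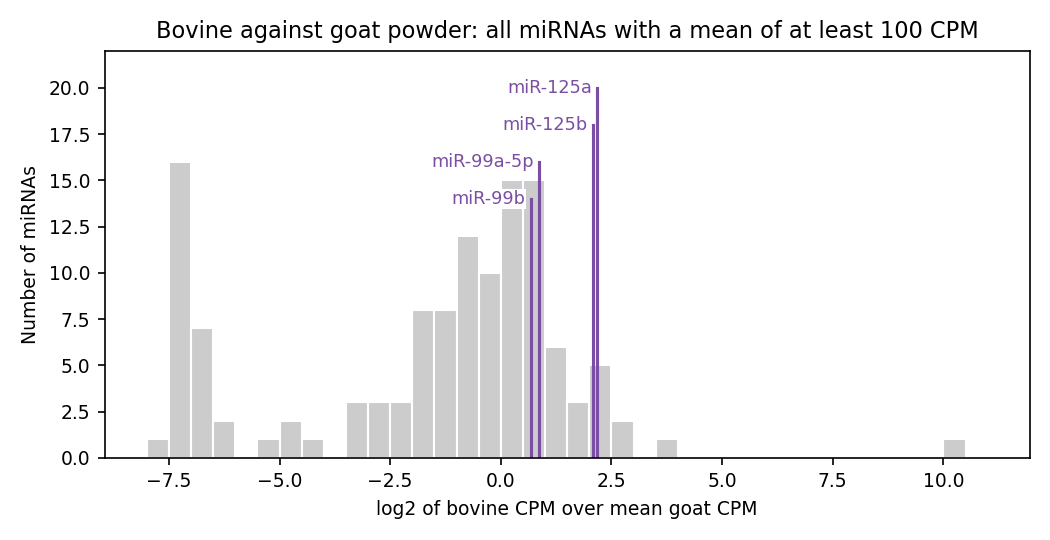
Number of miRNAs (y axis) by the log2 of bovine CPM over the mean goat CPM (x axis), for the miRNAs averaging 100 CPM or more in the 7 libraries, with members marked by purple lines whose height carries no value. The lines of miR-125a and miR-125b lie near 2.2 and 2.1, those of miR-99a-5p and miR-99b near 0.9 and 0.7, and the median of all miRNAs is -0.73.

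Ratios, which no scaling alters, showed the families apart in the bovine library. The log2 ratio of miR-99a-5p to miR-125b was -0.20 in the bovine library and 0.62 to 1.47 in the goat libraries, so that miR-125b was the more abundant of the pair in bovine powder alone among the 7 libraries. miR-99b over miR-125a was -3.64 in the bovine library against -2.59 to -1.54 in goat libraries, and miR-100 over miR-125b was -9.17 against -8.03 to -5.25. In linear terms miR-125a outnumbered let-7e by 11.9 times in the bovine library and by 1.08 to 2.86 times in the goat libraries. miR-125b over let-7c was 1.25 in the bovine library and 0.192 to 0.628 in goat libraries. The ratio of miR-99a-5p to let-7c was 1.09 in the bovine library, just above the 0.482 to 0.999 of the goat libraries. Between the miR-125 rows themselves the log2 ratio was 0.87 in the bovine library, inside the goat range of 0.40 to 1.06. let-7c and let-7e stood at 7458 and 1434 CPM in the bovine library, both inside their goat ranges.

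The miR-10 relatives of the miR-99 family did not share its level. miR-10a had 3.70 CPM in the bovine library, 333, 16.5 and 214 CPM in skimmed and 276, 290 and 417 CPM in whole libraries, and its edgeR log2 fold change for skimmed over whole was -0.69 ± 0.89 (SE; adjusted p = 0.94). Where the miR-99 rows were highest, in the bovine library, miR-10a was lowest, among the 43.2% of all miRNAs counted as lower there. miR-10b was at 0.176 CPM in the bovine library, at or below 0.503 CPM in each skimmed library and at 52.3, 0.444 and 0.293 CPM in whole A to C, so most of its reads were in whole A, and it did not pass the filter on low counts.

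miR-125b and miR-99a are often described in stromal and endothelial cells, and miR-125 in leukocytes, so markers of those cells were set beside them. The 3 stromal and endothelial rows present (miR-143, miR-145 and miR-126-3p) summed to 17.2 CPM in the bovine library, 1690 to 2458 CPM in the skimmed and 1487 to 1654 CPM in the whole libraries. The skimmed and whole ranges of this sum did not overlap, with the skimmed ones higher. In the goat libraries most of the sum was miR-143, at 2038 ± 387 CPM in skimmed and 1510 ± 36.7 CPM in whole powder, while miR-145 had 21.2 ± 23.7 CPM in skimmed and 33.9 ± 58.5 CPM in whole powder (SD, n = 3 each). Of the 2 rows tested, miR-143 had an edgeR log2 fold change of 0.52 ± 0.14 (SE; 95% interval 0.19 to 0.85; adjusted p = 0.12). Its powders did not overlap, where 20.1% of all miRNAs tested did not overlap in either direction. miR-145 had -0.56 ± 2.48 (interval -6.27 to 5.15; adjusted p = 0.96) in the same fit. In the bovine library miR-126-3p was at 0 and miR-145 at 0.352 CPM. Such low values were not particular to it. miR-126-3p was also at 0 in skimmed C and in all 3 whole libraries. miR-145 was at 0.323 CPM in skimmed A, 0 in whole A and 0.251 CPM in whole C. The 7 leukocyte rows summed to 1393 CPM in the bovine library, 5850 to 7631 CPM in the skimmed and 5617 to 6961 CPM in the whole libraries, and by mean over the 7 libraries miR-342 and miR-155 were the most abundant. Low bovine values were common and not confined to these lists. Of all miRNAs averaging 100 CPM or more, 43.2% were at least 2-fold below the goat mean and below the goat range. Of the list rows at that level, 4 of 4 leukocyte rows and 1 of 1 stromal row, miR-143, were so placed. The median log2 of bovine over mean goat CPM was -4.20 for those leukocyte rows. It was -6.72 for miR-143 and -0.73 over all miRNAs at that level. In the bovine library miR-150 and miR-142-3p were at 0. miR-142-3p was also at 0 in whole B and at 0.108, 0.0604 and 0.152 CPM in skimmed A, skimmed B and whole A. The skimmed and whole ranges of the leukocyte sum overlapped, while 1 of its 6 tested rows did not overlap with skimmed higher and 1 with skimmed lower. Of all miRNAs tested, 20.1% did not overlap in either direction. These were miR-223, at 1503, 1604 and 1722 CPM in skimmed and 1211, 1157 and 1154 CPM in whole libraries, and miR-150, at 0, 0.121 and 0 CPM in skimmed and 17.8, 7.30 and 15.6 CPM in whole libraries. edgeR called 0 of the 6, 2 had an unadjusted p under 0.05 (10.5% of all miRNAs), DESeq2 called 1, miR-150, as lower (3.47% of all), and limma-voom called 0. The part of these cell types in the members' values was not tested. Fewer vesicles from a cell type and less of a miRNA per vesicle cannot be told apart in such bulk samples.

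Some other miRNAs had profiles close to those of the members over the 6 goat libraries. Likeness was measured as the root-mean-square difference of log2(CPM + 1) after centring each miRNA on its own mean, over 122 candidates averaging 100 CPM or more in goat. For both miR-125 rows the most alike was miR-885, at 0.12 from miR-125a and 0.15 from miR-125b, nearer than they were to each other (0.20), where the median candidate was 0.57 and 0.52 away. miR-885 had 7171 CPM in the bovine library, 2630 ± 175 CPM in skimmed and 4650 ± 849 CPM in whole powder (SD, n = 3 each). Its order of the goat powders follows from its choice by likeness over these libraries. The bovine value, which the choice did not use, was above both goat means, as for both miR-125 rows. The log2 of bovine over mean goat CPM was 0.98 for miR-885, smaller than the 2.18 of miR-125a and 2.08 of miR-125b. Next to miR-125a came miR-361 (0.19) and miR-2898 (0.21), and next to miR-125b came miR-103 (0.24) and miR-30f (0.24). For miR-99a-5p and for miR-99b it was miR-23a, at 0.09 and 0.17, and miR-99a-5p and miR-99b were 0.18 from each other. After it came miR-191 and miR-652 (0.14 each) for miR-99a-5p and miR-148b (0.21) and miR-103 (0.21) for miR-99b. Unlike the miR-99 rows, miR-23a was lower in the bovine library, at 7280 CPM, than in either goat powder, at 12945 ± 825 CPM in skimmed and 15425 ± 925 CPM in whole (SD, n = 3 each). The nearest to miR-100 was miR-29c, 0.54 away, followed by miR-106b (0.59) and miR-148b (0.70), where the median candidate was 0.95 away.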

How the data were processed

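Per the file headers, the tables hold counts per mature miRNA. Many are fractions, as in estimated counts. Since totals differ between libraries, the values the authors deposited were treated as estimated counts without normalization. The aligner, counter, build and miRNA reference are not stated in the sources used here, and reads of goat carry bovine names. CPM was computed over the 364 rows of a library. Estimated counts were rounded to whole numbers for the tests, which were made on the 6 goat libraries with edgeR 4.0.16 (R 4.3.3; default low-count filter, 209 miRNAs kept; TMM factors 0.928 to 1.067; quasi-likelihood test; Benjamini-Hochberg adjustment over all 209). DESeq2 1.42.0 (no independent filtering) and limma 3.58.1 were alternatives. Sums and ratios used exact two-sided permutation tests (SciPy 1.17.1). The fits were tested on simulated data with changes larger than the members' fitted ones, and recovery was scored for abundant miRNAs only. How well the fits recover changes of the members' size was not tested. No library was a copy of another: in pairs of 1 powder, chi-square divided by its degrees of freedom was 497 to 1642. No label names a batch. The members and lists were chosen with earlier results of these data known. Named were all members, the clustered let-7 and miR-10 miRNAs, the 2 most abundant of each other list, and the 3 miRNAs most like each member. Markers at 0 in the bovine library, the rest of the stromal list, miR-205, miR-223 and miR-25 were named after their values were seen.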

Additional observations from a re-analysis of the deposited data

How the results depend on the processing

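Over the alternatives planned for skimmed against whole powder (scaling, filter, test, let-7a-5p left out, the replicate block, and each library left out), the log2 fold changes of miR-125a, miR-125b, miR-99a-5p and miR-99b stayed below 0. Median log2 fold change over all miRNAs shifted by -0.15 with upper-quartile scaling. DESeq2's Wald test called miR-125a (-0.76) and miR-125b (-0.68), also with independent filtering, added after seeing the data (adjusted p of 0.0086 and 0.029). Over all alternatives adjusted p ran from 0.0086 to 0.34 for miR-125a and from 0.029 to 0.30 for miR-125b. Leaving out 1 library at a time gave -0.97 to -0.58 for miR-125a, -0.77 to -0.48 for miR-125b, -0.33 to -0.21 for miR-99a-5p, -0.56 to -0.32 for miR-99b and -0.96 to 0.088 for miR-100, which turned without whole C. The log2 ratio difference of miR-125a over miR-125b ranged from -0.28 to 0.055, turning without skimmed B, that of miR-99b over miR-125a from 0.16 to 0.57, that of miR-99a-5p over miR-125b from 0.24 to 0.51, and that of miR-100 over miR-125b from -0.38 to 1.01, turning without whole A. The number of miRNAs called higher, 1 in edgeR, was 0 with upper-quartile scaling, DESeq2 size factors, library totals, let-7a-5p left out or the replicate block, 2 at a mean of at least 100 CPM, 5 by DESeq2 (8 with independent filtering), and 0 to 1 with a library left out (0 without skimmed B, skimmed C or any 1 whole library). Those called lower, 0 in edgeR, numbered 1 without the filter, 2 at a mean of at least 100 CPM and 7 by DESeq2 (4 with independent filtering), and 0 to 0 with a library left out. Letters were not shown to pair the libraries: deviations of same-letter libraries correlated at 0.20, 0.14 and 0.06 across miRNAs, each library best with its own letter. With the letter as a replicate block, miR-125a had -0.73 (adjusted p = 0.15) and miR-125b -0.63 (0.11), and no call of a member changed. TMM scaling over the 7 libraries gave a bovine over goat log2 fold of 2.57 for miR-125b, 1.35 for miR-99a-5p and 1.17 for miR-99b. The cause of these changes was not tested. The scarcest member, miR-100, rests on 64 to 700 reads in goat libraries.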
